A study of Homo sapiens with 8 samples.

Results

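The zinc finger genes of chromosome 19 are the protein-coding genes of that chromosome whose symbol is ZNF followed by a number, with or without a closing letter. The rule found 246 of the 58735 genes in the deposited gene table. Recipient cells were Caco-2, a human line from a colorectal carcinoma, used as a model of the gut epithelium, whose labels give the cell type as stem cells and the genotype as wild type. They received buffer (PBS, called untreated here, 3 libraries) or M2-exo (called treated here, 3 libraries), exosomes that the labels trace to THP-1, a monocytic leukaemia line, and whose M2 state they name without describing how it was reached; both groups share the line, the medium and the serum. No source used here states a dose, a time or whether replicates came from separate cultures. The p-values therefore reflect the spread among these 6 libraries, which may be technical.

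Most proteins of this family bind DNA through a row of zinc fingers, each reading a few bases. Many also carry a KRAB box, which recruits TRIM28 and, through it, the histone methyltransferase SETDB1, so that the bound chromatin is silenced; a well-known task is the repression of retroelements. The genes arose largely by tandem duplication and stand in clusters, and a smaller number of finger proteins without a KRAB box lie between or beside them.

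Library totals ranged from 15608937 to 18324599 counts, and the 246 genes took 0.165% to 0.190% of them. No counts at all were found for 43 genes, 38 had between 1 and 58 counts over the 6 libraries together (median 11.5), and 165 had enough for the test (67.1%, against 57.3% of the other protein-coding genes of chromosome 19 and 84.0% of 263 ZNF genes on other chromosomes). Of 12 intestinal epithelial markers 11 had enough counts to test, the exception being KRT20, and their summed level was 9612.5 to 13552 CPM (counts scaled to the size of the library). Of 10 macrophage markers 4 had enough counts, CD68 and TYROBP had none, and the sum was 13.4 to 19.4 CPM in untreated and 11.8 to 17 in treated cells. Of 7 fibroblast markers 5 had enough counts, and the sum was 69.6 to 80.7 CPM in untreated and 70.7 to 94.5 in treated cells. Untreated 1 stood apart by a mitochondrial share of 4.16% of counts, against 7.01% to 8.11% in the other 5 libraries.

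The sequence near the start sites was searched for short letter strings. RefSeq windows of GRCh38.p14, from 250 bases before to 50 after a start site, were found for 215 of the 246 genes by symbol, with 1 window taken for each gene. The letters CCGGAAG or their reverse complement CTTCCGG, the core of sites bound by ETS-family factors, were present in 98 of the 215 windows (45.6%). The share was 34.6% for ZNF genes of other chromosomes, 13.2% for other protein-coding genes of chromosome 19, 19% for all tested genes and 10.7% for all 27305 genes with a window. Below are the 100 bases before the start in the 5 genes of highest level that have a single window and hold the core there, with the core in capitals, 5′ to 3′ on the strand of the gene (plus for all 5). They lie at chr19:57849759-57849858 (ZNF587), chr19:57830199-57830298 (ZNF587B), chr19:34677578-34677677 (ZNF302), chr19:55605547-55605646 (ZNF865) and chr19:57746715-57746814 (ZNF776).
ZNF587: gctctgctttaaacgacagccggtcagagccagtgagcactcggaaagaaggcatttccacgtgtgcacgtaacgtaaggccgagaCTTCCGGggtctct
ZNF587B: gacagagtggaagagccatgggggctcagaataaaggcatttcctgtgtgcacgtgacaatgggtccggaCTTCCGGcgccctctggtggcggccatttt
ZNF302: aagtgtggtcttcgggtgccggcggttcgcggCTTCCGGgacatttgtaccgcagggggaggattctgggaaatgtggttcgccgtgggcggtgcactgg
ZNF865: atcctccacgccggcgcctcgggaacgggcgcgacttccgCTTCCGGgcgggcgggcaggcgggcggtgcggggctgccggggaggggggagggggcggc
ZNF776: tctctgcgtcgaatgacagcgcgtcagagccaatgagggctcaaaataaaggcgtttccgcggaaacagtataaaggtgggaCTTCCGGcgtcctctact

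All 5 printed stretches hold the core in the CTTCCGG orientation. ZNF587, ZNF587B, ZNF776 and ZNF865 lie in the same cluster, the last of the chromosome. Among other letters searched on both strands, CCAAT occurred in 53.5% of the 215 windows, against 36.4% for all tested genes and 35.7% for all genes with a window. GGGCGG occurred in 67.9%, close to the 70.0% of all tested genes and the 66.8% of other coding genes of chromosome 19 (44.6% of all genes with a window). TGACGT was found in 11.2% (11.4% of all tested genes, 8.32% of all) and TATAAA in 1.86% (5.58% and 12%). The core was about as frequent in the 146 windows of genes with enough counts to test (45.9%) as in the 69 windows of the others (44.9%). Among the tested genes, the median level was 1.25 FPKM in the 67 with the core and 1.79 in the 79 without, and the median log2 fold change after treatment was -0.02 and -0.01. A match is a string of letters, not a measured binding site.

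Levels were low and uneven. Levels between genes are given as the deposited FPKM, which divide by gene length, averaged over the 6 libraries. The tested genes had a median of 1.56 FPKM, against 2.58 for tested ZNF genes of other chromosomes and 6.07 for the other tested protein-coding genes of chromosome 19. At least 1 FPKM was reached by 111 genes, 5 FPKM by 12 and 10 FPKM by 3. The highest was ZNF146 (ENSG00000167635, chromosome 19 from 36214602 to 36238774, plus strand), which encodes a protein made almost only of zinc fingers. Untreated libraries 1 to 3 gave 20.1, 17.1 and 13.2 FPKM and the treated ones 18.4, 18.5 and 16.6, so the treated values lay inside the untreated range. ZNF581 followed with 9.48, 12.5 and 18.6 FPKM in untreated and 12.4, 13.0 and 16.1 in treated cells. ZNF787 had 4.33, 7.88 and 17.2 in untreated and 6.60, 11.1 and 15.2 in treated cells, and ZNF444, a SCAN-domain protein, 2.94, 7.33 and 12.7 in untreated and 6.41, 7.93 and 10.4 in treated cells. Untreated 1 was the lowest and untreated 3 the highest library for these last 3 genes, and the reverse held for ZNF146. The rest of the 10 highest were ZNF317 (7.60 ± 0.841 FPKM, SD over the 6 libraries), ZNF574 (6.67 ± 1.80), ZNF552 (6.51 ± 0.799), ZNF358 (6.25 ± 3.49), ZNF587 (5.82 ± 0.521) and ZNF579 (5.62 ± 2.72). From ZNF581 down, neighbours in this order differed by less than the larger of their SDs.

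Along the chromosome, a new cluster was begun wherever more than 1 Mb separated a gene from the next, and groups of at least 5 genes were kept. This gave 9 clusters with 235 genes and left 11 genes outside. Cluster 9, at the end of the long arm (55476332 to 58481230), was the largest with 59 genes, followed by cluster 8 (51571298 to 53580269) with 39, cluster 4 (19668796 to 24129961) with 37, cluster 6 (36182060 to 37817300) with 26, cluster 3 (11483427 to 12640098) with 25 and cluster 7 (43525497 to 45076588) with 24. Clusters 2, 1 and 5 held 15, 5 and 5 genes. Of 226 neighbouring pairs inside clusters, 131 were on the same strand.

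The share of genes with enough counts to test differed along the row. In cluster 7, 21 of 24 genes were tested and 1 had no count, and in cluster 8, 31 of 39 and 3. In cluster 4 only 16 of 37 were tested and 15 had no count, and in cluster 6, 12 of 26 were tested and 6 had none. The median level of tested genes ran from 0.627 FPKM in cluster 1 and 0.848 in cluster 6 to 1.79 in cluster 8 and 2.63 in cluster 2. The leading gene was ZNF77 in cluster 1 (2.27 FPKM), ZNF317 in cluster 2, ZNF823 in cluster 3 (4.81), ZNF714 in cluster 4 (2.89), ZNF302 in cluster 5 (4.71), ZNF146 in cluster 6, ZNF428 in cluster 7 (4.47), ZNF28 in cluster 8 (4.85) and ZNF581 in cluster 9. The lowest tested genes ranged from ZNF285 in cluster 7 (0.0842 FPKM) to ZNF426 in cluster 2 (0.379).

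**Figure D1:**
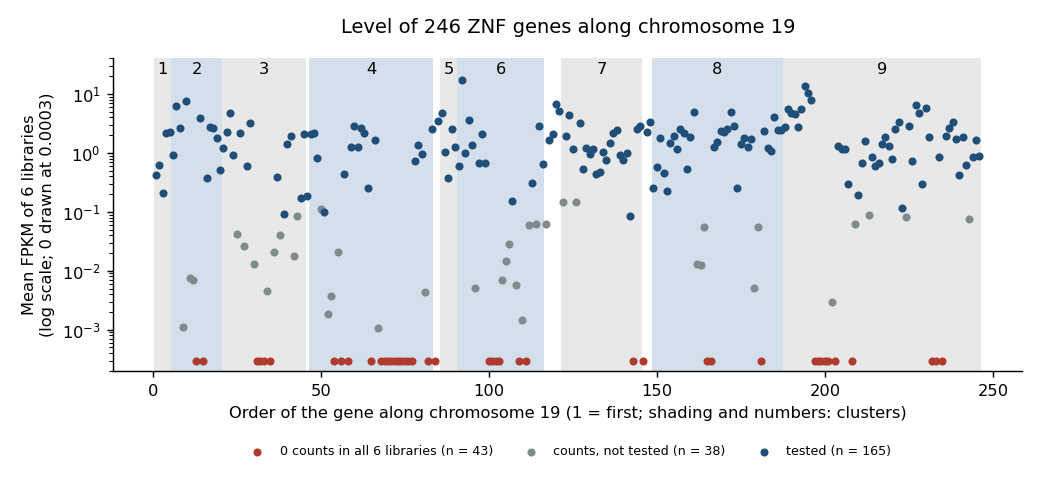
Mean FPKM of the 6 libraries (log axis, genes at 0 drawn at the bottom) for each of the 246 genes in their order along chromosome 19, with the 9 clusters shaded and numbered. Genes with no count stand together in the middle of cluster 4 and in the first part of cluster 9, there directly after ZNF444 at 7.94 FPKM.

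Of the 43 genes without any count, 22 lay in 4 unbroken rows of at least 3 neighbours, and 21 lay alone or in pairs. The longest row held 10 neighbours of cluster 4, from ZNF208 through ZNF257, ZNF676, ZNF729, ZNF98, ZNF492, ZNF99, ZNF723 and ZNF728 to ZNF730, over chromosome 19 from 21932958 to 23147219. On one side stood ZNF43, with a single count in 1 library, and on the other ZNF724, with 2.41, 2.01 and 1.91 CPM in untreated and 3.26, 2.76 and 2.34 in treated cells. In cluster 9 a row of 5, ZNF582, ZNF583, ZNF667, ZNF471 and ZNF470, lay between 56375846 and 56588911. The gene before it, ZNF444, had 21.6, 53.3 and 92.7 CPM in untreated and 46.9, 57.5 and 75.9 in treated cells, so a silent row followed directly on one of the most active members. A row of 4 in cluster 6 ran from ZNF790 to ZNF568 and a row of 3 in cluster 3 from ZNF433 to ZNF844. A count of 0 over the 6 libraries together allows a level of up to 0.0286 CPM (3 counts, counting error only). No source used here states how reads that match several genes were treated, and near-identical copies may have lost reads. Another gene of the table overlapped 34 of the 43 genes at 0 (79.1%) and 145 of the 203 with counts (71.4%); on the same strand, the shares were 41.9% and 42.4%.

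By role, 5 of 6 genes known for repressing retroelements had enough counts to test. ZNF91, which restrains SVA elements, had 16.4, 13.9 and 9.45 CPM in untreated and 18.0, 14.7 and 11.9 in treated cells. ZNF93, which restrains a group of LINE elements, was near the lower limit of the tested genes, with 0.225 to 0.826 CPM over the 6 libraries. ZNF649 had 1.81 ± 0.289 FPKM (SD over the 6 libraries), ZNF808 1.27 ± 0.242 and ZNF765 1.09 ± 0.228, while ZNF534 had no count. Among 9 genes reported to carry promoter methylation in tumours, ZNF177, ZNF471, ZNF582 and ZNF677 had no count, and ZNF132 and ZNF671 had too few to test (0.0759 and 0.0826 FPKM). ZNF331 was the exception at 2.49 ± 0.304 FPKM, with ZNF577 at 0.579 and ZNF154 at 0.114. Methylation was not measured here. Of 4 genes known as repressors of a named target, ZNF274, which brings SETDB1 to zinc finger genes themselves, stood at 23.4, 20.5 and 24.2 CPM in untreated and 24.6, 20.6 and 21.8 in treated cells, a narrow range. ZNF224, a repressor of the aldolase A gene, had 1.04 ± 0.229 FPKM. ZNF304, linked to silencing of the INK4-ARF locus, had no count, and ZNF420, an inhibitor of p53, was counted in only 2 of the 6 libraries.

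The treatment comparison asked which genes differed after M2-exo. None of the 165 tested genes passed the adjusted threshold in edgeR (adjusted p under 0.05; 0% of all 15084 tested genes passed), nor with DESeq2 or limma-voom. An unadjusted p under 0.05 was reached by 1 gene in edgeR (0.736% of all tested genes reached it). In DESeq2 it was reached by 0 members (124 of all 29414 genes) and in limma-voom by 1 (104 of all 15084). The log2 fold change was above 0 in 80 genes and below 0 in 85, with a median of -0.008 against -0.010 over all tested genes, and its size was under 0.5 in 159 of 165. The 95% interval lay wholly inside a 2-fold change for 133 of the 165 genes (80.6%, against 75.8% of all tested genes). For the other 32 genes the interval reached past a 2-fold change.

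The gene with the smallest unadjusted p was ZNF30 in cluster 5 (34926903 to 34945170, plus strand), a gene that overlaps no other in the table. It had 6.92, 5.54 and 4.95 CPM in untreated and 7.99, 9.24 and 7.80 in treated cells. All 3 treated values lay above all 3 untreated ones. The log2 fold change was 0.52 (SE 0.22, 95% interval 0.02 to 1.03; edgeR adjusted p = 0.9999), so it did not pass. The groups also did not overlap for 2 other genes with higher treated values (together 3 of 165, where 1.65% of all tested genes did so) and for 3 with lower ones (2.3% of all tested genes). ZNF841 had 10.1, 9.29 and 10.1 CPM in untreated and 13.5, 12.1 and 10.2 in treated cells (log2 0.28, SE 0.20), and ZNF525 8.51, 8.39 and 7.60 against 9.74, 9.42 and 8.81 (log2 0.19, SE 0.19). Both lie in cluster 8 and each overlaps another zinc finger gene on the same strand. ZNF235 had 7.05, 5.54 and 5.51 CPM in untreated and 5.01, 4.88 and 4.96 in treated cells (log2 -0.28, SE 0.22), and ZNF549 6.48, 6.55 and 7.48 against 6.36, 5.45 and 6.08 (log2 -0.20, SE 0.21). The sixth, ZNF490, named after its values were seen because its mean was under 1 CPM, had 0.889, 1.01 and 1.29 CPM against 0.732, 0.517 and 0.613 (log2 -0.77, SE 0.40). None of the 6 passed (edgeR adjusted p = 0.9999 for each).

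**Figure D2:**
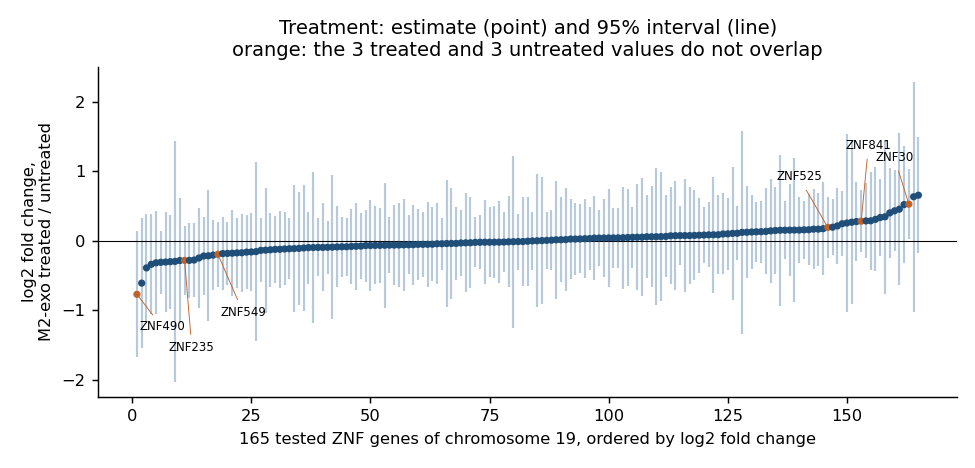
log2 fold change of M2-exo treated over untreated cells for the 165 tested genes, ordered by size, with 95% intervals as lines; orange points mark the 6 genes whose 3 treated and 3 untreated values do not overlap. All intervals but that of ZNF30 (0.02 to 1.03) include 0.

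By cluster, the median log2 fold change ran from -0.14 in cluster 1 (5 genes) and -0.07 in cluster 7 (16 of 21 below 0) to 0.08 in cluster 8 (20 of 31 above 0) and 0.16 in cluster 5 (5 genes). The median SE of a single gene was 0.26. The sign of the median over all members changed with the libraries: without untreated 1 the median over all members was 0.11, with 115 of 167 above 0, and without untreated 3 it was -0.07, with 61 of 168 above 0. For the TRIM28 pathway, a list of KRAB cofactors and their partners named 33 genes, of which TASOR had no match by symbol. The other 32 were all tested and none passed in either direction. Of these, 15 lay above 0 and 17 below (median -0.01). TRIM28 itself had 589.8, 731 and 886 CPM in untreated and 696, 781 and 832 in treated cells (log2 0.07, SE 0.17), and its mean level per length, 185 FPKM, was above that of each zinc finger gene of the chromosome. SETDB1 stood at a log2 fold change of 0.00 and MORC2, a helper of the silencing complex HUSH, also at 0.00. The largest values in the list were 0.18 for TRIM24 and 0.14 for MTA1 on one side and -0.19 for RBBP7 and -0.13 for CBX1 on the other.

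Libraries of the same group differed among themselves. The median SD of a gene within a group was 0.25 in untreated and 0.20 in treated cells on the scale log2(CPM + 1). Over all tested genes it was 0.26 and 0.17. The median size of the edgeR log2 fold change was 0.10 for the members and 0.10 for all tested genes. That value compares group averages rather than single libraries, so it is not the same measure as the SD. On the scale log2(CPM + 1), less its mean over the 6 libraries, the tested genes had a median of 0.17 in untreated 1, 0.01 in untreated 2 and -0.17 in untreated 3. The treated libraries had 0.13, -0.03 and -0.04. The medians over all tested genes lay between -0.002 and 0.02 in every library. The other tested protein-coding genes of chromosome 19 went the opposite way, with medians of -0.44, 0.02 and 0.37 in the untreated libraries and -0.15, 0.03 and 0.17 in the treated ones. ZNF genes of other chromosomes lay on the same side as those of chromosome 19 in untreated 1 and 3, with smaller values (0.12 and -0.06). The summed level of the 246 genes was 1880 CPM in untreated 1 and 1701 in untreated 3.

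**Figure D3:**
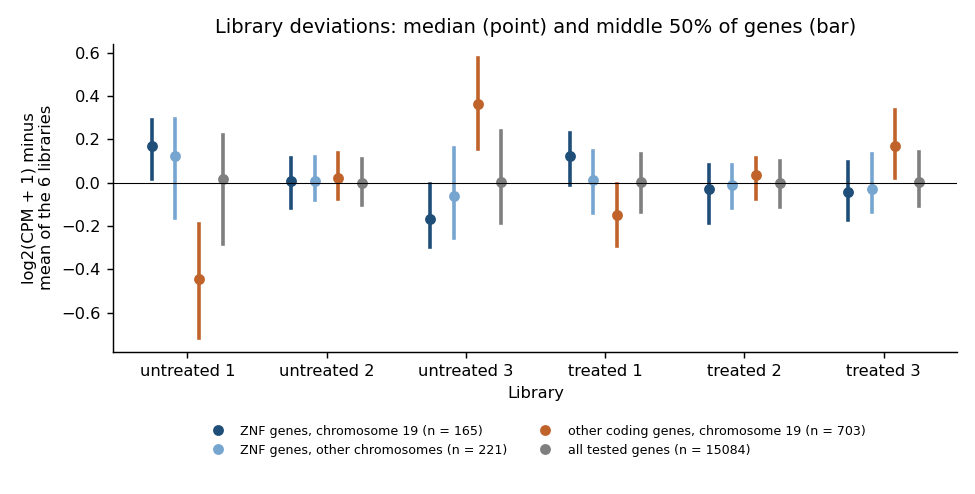
Deviation of each library from the mean of the 6 on the log2(CPM + 1) scale, as median (point) and middle 50% of genes (bar), for 4 gene sets. In untreated 1 the zinc finger genes of chromosome 19 lie at 0.17 and the other coding genes of that chromosome at -0.44; in untreated 3 both signs are turned.

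Taken gene by gene, 129 of the 165 tested genes (78.2%) were lower in untreated 3 than in untreated 1, against 51.1% of all tested genes and 9.67% of the other coding genes of chromosome 19. The median difference was -0.34 for the zinc finger genes, -0.01 for all tested genes and 0.80 for the other coding genes of the chromosome. Treated 3 and treated 1 gave the same signs with smaller values: 115 of 165 genes (69.7%) were lower in treated 3, with medians of -0.16, -0.004 and 0.31 for the same sets. ZNF genes of other chromosomes lay between the members and all tested genes. Of these 221 genes, 62.4% were lower in untreated 3 (median -0.18) and 57.9% in treated 3 (median -0.05), so the shift was partly shared. A difference below 0 in both groups was found for 102 of the 165 genes, against 101 of 221 ZNF genes of other chromosomes and 5285 of all 15084 tested genes. Among the members, the 2 differences had a Spearman correlation of 0.48 and a Pearson correlation of 0.71 (165 genes, no library in common). Without the genes listed below as having no KRAB box, the values were 0.36 and 0.52. Over all tested genes the Spearman value was 0.50. With genes of at least 5 CPM only, the medians for untreated 3 minus untreated 1 were -0.36 for 113 zinc finger genes and 0.88 for 548 other coding genes of the chromosome. Both pairs of libraries were chosen with earlier results of these data known, so the comparison is a description with no test. Untreated 1 also had the low mitochondrial share given above, and markers of the intestinal epithelium moved as well: 9 of the 11 tested were higher in untreated 3 than in untreated 1 (median 0.73), and 6 of 11 in treated 3 than in treated 1 (median 0.08). CDX2, an intestinal transcription factor, had 35.3 CPM in untreated 1 and 104 in untreated 3, and HNF4A, another, 207 and 376, while KRT20 was counted 1 time in untreated 1 and not at all in untreated 3. Of the macrophage markers, 3 of 4 tested were higher in untreated 3 (median 0.21), and of the fibroblast markers 3 of 5 (median 0.33). The treated pair went the other way, with 3 of 4 macrophage markers lower in treated 3 (median -0.13) and 3 of 5 fibroblast markers (median -0.04). The part of these in the differences was not tested.

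Some members ran against the rest, among them genes whose proteins have no KRAB box. A list of 12 such genes was made from general knowledge, with earlier results known and without a check against protein sequences, and it is not complete. Its medians were -0.80, -0.006 and 0.57 in the untreated libraries and -0.28, 0.13 and 0.30 in the treated ones. The 153 other tested genes had 0.19, 0.008 and -0.18 in untreated and 0.13, -0.05 and -0.05 in treated libraries. In untreated 3 against untreated 1, 11 of the 12 were higher and 128 of the 153 lower, and in treated 3 against treated 1, 12 of the 12 were higher and 115 of the 153 lower. The exception in the untreated pair was ZNF653, at 4.26 and 3.94 CPM. The 12 were also more abundant (median 5.34 FPKM against 1.44) and shorter (median gene length 3311 bases against 5138). Summed, the 12 had 134 CPM in untreated 1 and 379 in untreated 3, and the other 234 genes 1746 and 1322. ZNF146, a finger protein without a KRAB box that the list left out, went with the other genes and was lower in untreated 3 (13.2 against 20.1 FPKM). Whether a KRAB box goes with the library differences was not tested. A list made with results of these data known cannot test it.

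ZNF428 in cluster 7 varied most, with 1.72, 4.42 and 20.8 CPM in untreated and 3.21, 6.89 and 11.8 in treated cells. ZNF865 followed with 6.54, 14.4 and 34.4 in untreated and 11.8, 13.3 and 29.8 in treated cells. ZNF787 had 16.1, 29.0 and 64.1 CPM in untreated and 24.5, 40.8 and 56.2 in treated cells. In each of these 3 genes the lowest value was untreated 1 and the highest untreated 3, and the groups overlapped. ZNF358 in cluster 2, not on the list, had 4.64, 11 and 19.9 CPM in untreated and 7.94, 11.1 and 23.7 in treated cells. ZNF524 had 1.52, 6.27 and 9.23 in untreated and 6.53, 7.46 and 7.69 in treated cells. For both, untreated 1 was again the lowest library. A level at least 2-fold higher in untreated 3 than in untreated 1 on this scale was found for 9 genes: ZNF428, ZNF865, ZNF444, ZNF524, ZNF787 and ZNF579 of the list, and ZNF358, ZNF837 and ZNF446 outside it. At the other end were 4 genes at least 2-fold lower. Among these, ZNF28 had 37.3, 28.8 and 17.7 CPM in untreated and 36.7, 30.7 and 24.4 in treated cells, and ZNF254 27.8, 18.3 and 13.4 in untreated and 22.5, 18.3 and 15.5 in treated cells. ZNF493 had 3.49, 3.92 and 1.07 in untreated and 3.38, 2.53 and 2.90 in treated cells, where the low value was untreated 3 alone; the fourth was ZNF565.

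**Figure D4:**
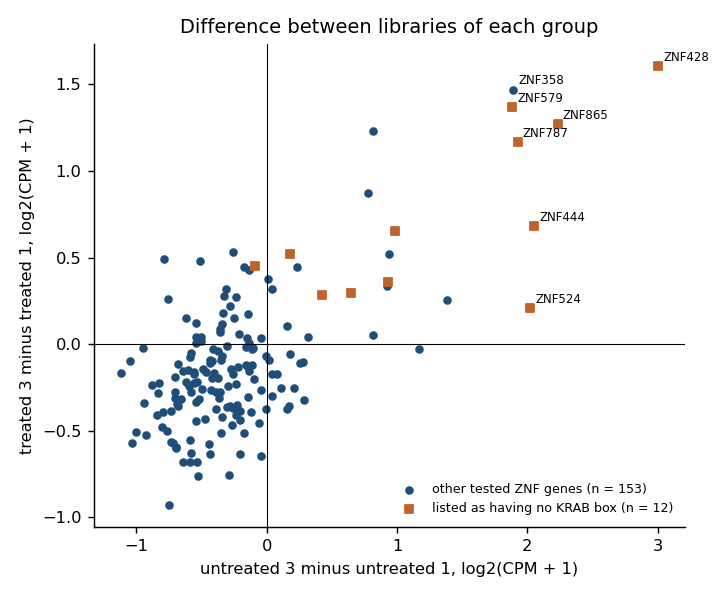
Each point is 1 of the 165 tested genes; x is untreated 3 minus untreated 1 and y is treated 3 minus treated 1, both on the log2(CPM + 1) scale. Most of the 153 other genes lie at lower left, 102 of them below 0 on both axes, and the 12 genes listed as having no KRAB box (squares) all lie above 0 on y. Over all tested genes, 5285 of 15084 are below 0 in both differences.

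The start-site sequences at the 2 ends of this difference are shown for ZNF428 (chr19:43619630-43619729, minus strand) and ZNF254 (chr19:24087087-24087186, plus strand), the extremes among genes with 1 window and at least 5 CPM. Each line gives the 100 bases before the start, 5′ to 3′ on the strand of the gene, with every CG pair in capitals.
ZNF428: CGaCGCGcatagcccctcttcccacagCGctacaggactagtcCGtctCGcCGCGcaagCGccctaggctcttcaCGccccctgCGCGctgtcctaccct
ZNF254: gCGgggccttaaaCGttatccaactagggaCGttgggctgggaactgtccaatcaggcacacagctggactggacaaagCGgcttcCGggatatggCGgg

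ZNF428 held 12 CG pairs at 68% G and C, and ZNF254 6 at 59%. Over the 146 tested members with a window, the share of G and C in the 300 bases and the difference between untreated 3 and untreated 1 had a Spearman correlation of 0.32, against 0.16 over 10393 tested genes with a window. This is a correlation across genes, which share the same 2 libraries. The median share of G and C was 66.3% in the 11 listed genes with a window and 61.0% in the tested members. It was 65.3% in all tested genes and 64.0% in other protein-coding genes of chromosome 19, so the listed genes lay near the usual share. The part of base composition in the library differences was not tested, and the composition of the transcripts was not analysed here.

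Counted gene by gene at a fixed size, few members left the mean of the 6 libraries by 1.5-fold or more. In untreated 1, 0 of 165 were that far above and 9 (5.45%) below, against 1.01% and 10.1% of all tested genes. In untreated 3, 7 (4.24%) were above and 3 (1.82%) below, against 5.77% and 0.829%. In treated 1, 1 was above and 2 below (0.975% and 1.01% of all tested genes), in treated 3, 6 were above and 0 below (1.84% and 0.411%), and in untreated 2 and treated 2 there were none (0.457% and 0.385% of all tested genes above, 0.259% and 0.709% below). The share of members above was larger than over all genes in treated 3, and the share below was smaller in untreated 1; the medians given above come mostly from genes within 1.5-fold of the mean.

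By cluster, the difference between untreated 3 and untreated 1 was most uniform in cluster 4, where 16 of 16 tested genes were lower in untreated 3 (median -0.62), and in cluster 6, with 12 of 12 (median -0.62). Cluster 3 followed with 12 of 13 (median -0.54) and cluster 8 with 28 of 31 (median -0.46). Cluster 9 was divided, with 22 of 44 lower and a median of -0.03. Its 8 tested genes on the list without a KRAB box were all higher in untreated 3 (ZNF579, ZNF524, ZNF865, ZNF784, ZNF580, ZNF581, ZNF787 and ZNF444). The division was also present among its 36 tested genes outside the list. Higher ones there included ZNF837 (1.38), ZNF446 (1.17), ZNF324 (0.93) and ZNF628 (0.82). The list is not complete and genes outside it were not checked for a KRAB box, so some of these may also lack one. In the treated pair, 29 of 31 genes of cluster 8 were lower in treated 3 (median -0.32), 12 of 16 in cluster 4 (-0.21), 10 of 12 in cluster 6 (-0.13) and 25 of 44 in cluster 9 (-0.03). No test compares the clusters, and genes of a cluster may share reads. Among the 49 tested genes that overlap no other gene of the table, 38 were lower in untreated 3 (median -0.28).

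**Figure D5:**
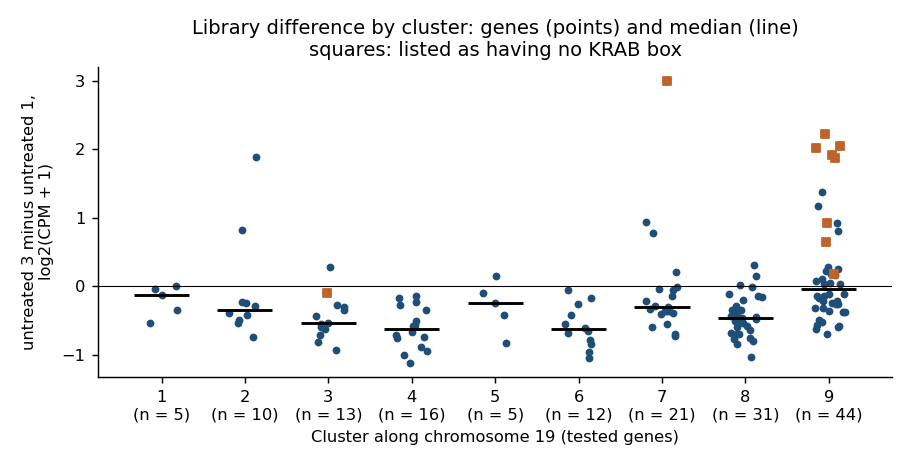
Difference between untreated 3 and untreated 1 on the log2(CPM + 1) scale for the tested genes of each cluster (points, squares for genes listed as having no KRAB box), with the cluster median as a line. All points of clusters 4 and 6 lie below 0, and cluster 9 spreads from below 0 to above 2.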

How the data were processed

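The submitters' processing notes name CASAVA, HISAT2, featureCounts and GRCh38. Their versions, the strand setting and the handling of multiply matching reads are not stated in any source used here. The authors deposited whole-number counts per gene and FPKM values, which scale counts to gene length (in bases, a column of the deposited table) and library size. In the 2 gene tables, 6 columns match no sample and were not used. Differences in counts were tested in R 4.3.3 by the quasi-likelihood F test of edgeR 4.0.16 (2-sided), after filterByExpr, which left 15084 genes, and TMM scaling; p-values were adjusted by Benjamini-Hochberg over these genes, with a threshold of 0.05. The SE of a log2 fold change was taken from its size and its F value. CPM are TMM-scaled. The procedure was tested on simulated data.

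Members, gene lists, motifs and the compared libraries were chosen with earlier results of these data known. Named genes were the 10 highest by FPKM, the extremes of each cluster, the largest changes among non-overlapping members of at least 1 CPM, the 6 members of widest range over libraries, and list members. Alternatives were a minimum mean of 1 CPM, no filter, scaling by RLE or by total counts, DESeq2 1.42.0, limma-voom (limma 3.58.1), limma on log2(FPKM + 1) and log2(FPKM + 0.1), a replicate block and each library left out. The planned protein comparison was not run, since no protein sequences were used here.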

Additional observations from a re-analysis of the deposited data

How the results depend on the processing

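No member was called under any of the 15 alternatives to the edgeR test (edgeR with other scaling, filter or libraries, DESeq2, limma-voom, limma on log2 FPKM and the replicate block). Over all genes, 6 of 29414 were called with no filter and 1 of 15545 without treated 2. In the other alternatives no gene was called. The median log2 fold change of the members stayed within -0.07 and 0.11, both reached by leaving out 1 library. The number of genes with non-overlapping groups was not stable: 3 were higher and 3 lower, 5 were higher with no filter, and 6 were higher and 1 lower with a mean CPM of at least 1. With 1 library left out, where fewer values make separation easier, 7 to 20 were higher and 5 to 16 lower. The 20 came without untreated 1 and the 16 without untreated 3. Shares over all tested genes are not given for these alternatives, so the counts cannot be read as particular to the members. The log2 fold changes of ZNF30, ZNF841, ZNF525, ZNF235 and ZNF549 kept their sign in every alternative, and ZNF30 ranged from 0.38 to 0.68. With the replicate number as a block, 0 members were called and the median was 0.01. For pairs of libraries, deviations were taken from the mean of the 3 libraries of the same group. Those of same-numbered libraries correlated at 0.37, -0.09 and 0.60 over all genes and at 0.61, -0.03 and 0.66 over the members. Untreated 1 with treated 3 gave -0.465 over all genes and -0.613 over the members. Untreated 3 with treated 1 gave -0.525 and -0.66. The 3 deviations of a gene in a group sum to 0, so these values are not separate from the same-numbered ones. The labels do not say that a replicate number marks a shared batch, so the main fit did not take the numbers as pairs. Whether libraries 1 and 3 share a batch across the groups was not tested. A largest gap of 0.5 Mb gave 10 clusters and one of 2 Mb gave 6, against 9. For alternatives chosen after seeing the data (RLE factors, total counts, at least 5 CPM, without the genes listed as having no KRAB box), the median of untreated 3 minus untreated 1 was -0.38 to -0.32 and that of treated 3 minus treated 1 -0.20 to -0.16. Counts of members past 1.5-fold of the mean went at 2-fold from 7 to 2 above in untreated 3, from 6 to 0 above in treated 3 and from 9 to 7 below in untreated 1. Shares over all tested genes at 2-fold are not given, so these counts too cannot be read as particular to the members. The median 95% interval reached 0.58 to each side, with a median of 93 counts in a member's lowest library. The other coding genes of chromosome 19 had more counts (267) and wider intervals (0.66), as had the genes listed without a KRAB box (157.5 and 0.82).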
